A study of Mus musculus with 24 samples.

Results

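Retinas of the albino inbred mouse strains A/J and NOD/ShiLtJ were compared with those of 3 pigmented classical strains, 129S1/Svlmj, C57BL/6J and NZO/HlLtJ, by RNA sequencing. A gene belonged to the comparison when the means of both albino strains lay outside the range of the 3 pigmented strain means, on the scale of log2(cpm + 1), where cpm scales the reads of a gene to the total reads of its library. Genes on chromosomes X and Y were left out, and a mean of at least 0.5 cpm over the 15 libraries was required. Of 28802 genes in the table, 27810 lay off the sex chromosomes and 15811 of these passed the limit on the mean. The rule was met by 5890 of the 15811. The series holds 24 retinas, 3 from each of 8 inbred strains, and the comparison takes 15 of them, 6 of albino and 9 of pigmented mice. All mice were 28 postnatal days old and wild type in genotype. This sets aside variants that whole strains carry, such as those of Tyr and Nnt described below. Each library was made from total RNA of dissected retina after removal of ribosomal RNA. The 9 retinas of the wild-derived pigmented strains CAST/EiJ, PWK/PhJ and WSB/EiJ served only as a description at the end. Coat colour is given neither in the sample labels nor in the paper, and is taken from general knowledge of these strains.

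Albino mice carry a defect of tyrosinase, the enzyme encoded by Tyr, which catalyses the rate-limiting oxidation of tyrosine on the way to melanin. In the eye, melanin is made in the retinal pigment epithelium, the choroid and the iris, while the neural retina itself has no pigment. Albino eyes are known for a reduced uncrossed projection of retinal ganglion cells to the brain, for more light reaching the photoreceptors and for a greater sensitivity of the photoreceptors to light damage.

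The libraries held between 59421000 and 78150000 reads, with a median of 68311000, as read from the value of 1 read in cpm. Libraries of A/J had 76303000, 61769000 and 63205000 reads, and those of NOD/ShiLtJ had 76172000, 74452000 and 71688000. A floor of 3 reads stood at 0.0384 to 0.0505 cpm, so the limit of 0.5 cpm on the mean corresponded to 29.7 to 39.1 reads. Such floors cover counting error only. The sex of the mice is not in the labels. Xist, the RNA of the inactive X chromosome, was at 962 cpm in 129S1/Svlmj replicate 3 and at 906 cpm in C57BL/6J replicate 3. In these 2 libraries 4 genes of chromosome Y (Ddx3y, Eif2s3y, Kdm5d and Uty) summed to 0.0483 and 0.186 cpm, against 114 to 149 cpm in the other 13. All 6 albino libraries and the 3 of NZO/HlLtJ thus had the marks of males, and 2 of the 9 pigmented libraries those of females.

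Lens RNA also differed between libraries. Summed over 19 lens genes, it was 2668 cpm in NOD/ShiLtJ replicate 2, 2230 cpm in 129S1/Svlmj replicate 2 and 308 cpm in C57BL/6J replicate 2, against 12.9 to 77.5 cpm in the other 12 libraries. Cryaa, a lens crystallin and the most abundant gene of that list, was at 755, 725 and 90.9 cpm in the same 3 libraries. No lens gene met the rule on 1 side of the pigmented range. Nnt, a mitochondrial transhydrogenase, is partly deleted in C57BL/6J and served as a check of the labels. It measured 4.81, 4.72 and 4.93 cpm in C57BL/6J, 3.25, 4.12 and 3.83 cpm in 129S1/Svlmj and 3.60, 3.42 and 3.22 cpm in NZO/HlLtJ. The albino libraries were at 6.92, 7.56 and 7.63 cpm in A/J and 7.50, 7.74 and 7.13 cpm in NOD/ShiLtJ. Each albino strain was above each pigmented strain (largest adjusted p of the 6 pairs = 0.000780 in limma with Benjamini-Hochberg adjustment). Its total over all exons did not set C57BL/6J below the other pigmented strains, and reads inside the deleted exons were not counted separately here.

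Both albino means lay above all 3 pigmented means for 2936 of the 15811 genes tested (18.6%) and below them for 1686 (10.7%). In another 1268 genes (8.02%) an albino mean lay above the pigmented range and the other below it. A stricter reading asked that each of the 6 pairs of an albino with a pigmented strain differ in the same direction, with the largest of the 6 p-values under 0.05 after Benjamini-Hochberg adjustment in limma. By this reading 56 genes were higher (0.354%) and 42 were lower (0.266%) in both albino strains, and these 98 genes are referred to as called. Their libraries did not overlap: the 6 albino and the 9 pigmented values were fully apart for all 98. The calls were made from these same libraries, so this separation is no separate support for them. Over all genes tested, 312 had all 6 albino libraries above all 9 pigmented libraries (1.97%) and 228 had them below (1.44%). As a single contrast of the mean of the albino strains with that of the pigmented strains, 2903 genes were higher (18.4%) and 2056 were lower (13.0%) at an adjusted p under 0.05 in limma.

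The balance of directions depended on how libraries were scaled. In the deposited values 63.5% of the genes with both means on 1 side were above, against 52.4% with libraries scaled by median ratios and 49.4% with quantile-normalized values. Called genes numbered 62 higher and 53 lower under the former and 59 higher and 54 lower under the latter. The p-values measure the spread between mice of a strain. Coat colour is shared by whole strains, so it cannot be told apart from other differences between them, and with 5 strains as units the smallest one-sided p of an exact permutation test is 0.1. Without the 2 libraries with high Xist, 38 genes were called higher and 24 lower, and without the 3 libraries with high Cryaa 67 were called higher and 31 lower. Which libraries to leave out was chosen after seeing the data.

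At the edge of the rule, mean log2(cpm + 1) of Sar1b was 3.44244 in A/J and 3.42575 in NOD/ShiLtJ, with the lowest pigmented mean at 3.44245, which put it just inside. Cx3cl1 was just inside on the upper side, with 4.07389 in NOD/ShiLtJ and 4.07387 in C57BL/6J. Just outside lay 1700037H04Rik, with 1.88142 in NOD/ShiLtJ and 1.88143 in 129S1/Svlmj, and Slc27a4, with 3.96855 in NOD/ShiLtJ and 3.96856 in NZO/HlLtJ.

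Tyr itself, the gene of tyrosinase (chromosome 7, 87424771 to 87493512 of GRCm38), was at a low level in every library. Its RNA measured 1.23, 1.42 and 0.886 cpm in A/J and 1.88, 0.927 and 0.642 cpm in NOD/ShiLtJ. In pigmented libraries it was at 1.67, 1.70 and 1.39 cpm in 129S1/Svlmj, 1.29, 0.729 and 1.33 cpm in C57BL/6J and 0.835, 0.848 and 0.408 cpm in NZO/HlLtJ. The groups overlapped fully, and the difference was 0.03 ± 0.11 (SE) on the log2(cpm + 1) scale, with an adjusted p of 0.889 in limma's single contrast.

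Of 7 tested genes of melanin synthesis, 3 had both albino means above the pigmented range, 0 had them below and 0 were called. Over all genes tested 18.6% were above and 10.7% below. In the single contrast 5 were higher and 0 were lower, against 18.4% and 13.0% of all genes. The list median was 0.50 against 0.02 over all genes tested. Tyrp1, an enzyme of the melanosome, averaged 8.28 ± 2.45 cpm in A/J, 5.39 ± 4.00 in NOD/ShiLtJ, 3.96 ± 1.43 in 129S1/Svlmj, 3.84 ± 1.40 in C57BL/6J and 1.99 ± 0.667 in NZO/HlLtJ (SD, n = 3). Pmel, whose protein forms the fibrils on which melanin is laid down, averaged 5.02 ± 2.50 cpm in A/J, 6.28 ± 5.09 in NOD/ShiLtJ, 3.85 ± 0.679 in 129S1/Svlmj, 2.91 ± 1.14 in C57BL/6J and 1.73 ± 0.460 in NZO/HlLtJ. Dct, dopachrome tautomerase, averaged 10.8 ± 2.26 cpm in A/J, 9.49 ± 6.80 in NOD/ShiLtJ, 9.42 ± 1.32 in 129S1/Svlmj, 6.47 ± 2.36 in C57BL/6J and 2.59 ± 0.805 in NZO/HlLtJ, so that NOD/ShiLtJ and 129S1/Svlmj did not differ beyond their spread. Single libraries of the colours overlapped for all 7 genes. NOD/ShiLtJ replicate 1 had 9.96 cpm of Tyrp1 and 12.1 cpm of Pmel, each the highest value of its strain, and without it 0 of the 7 genes had both albino means above.

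Summed over the list, melanin genes reached 36.7, 42.7 and 27.5 cpm in A/J and 54.2, 25.6 and 19.9 cpm in NOD/ShiLtJ. The pigmented sums were 25.7, 32.6 and 26.5 cpm in 129S1/Svlmj, 25.2, 14.9 and 22.6 cpm in C57BL/6J and 17.1, 15.4 and 12.4 cpm in NZO/HlLtJ. NOD/ShiLtJ replicate 1 was the highest of all, and NZO/HlLtJ replicate 3 was the lowest. Because melanin genes are expressed outside the neural retina, markers of the pigment epithelium and of stroma were set beside them. Of 12 tested genes of the pigment epithelium and the visual cycle, 2 had both albino means above and 0 below, and the median difference was 0.10. Over all genes tested 18.6% were above and 10.7% below. Rpe65, the isomerase of the visual cycle, averaged 4.67 ± 3.04 cpm in A/J, 2.35 ± 0.434 in NOD/ShiLtJ, 3.53 ± 0.3503 in 129S1/Svlmj, 2.15 ± 0.497 in C57BL/6J and 1.55 ± 0.409 in NZO/HlLtJ. Rlbp1, a retinoid carrier also made by Müller glia and the most abundant gene of this list, averaged 83.4 ± 1.98 cpm in A/J, 92.2 ± 4.68 in NOD/ShiLtJ, 77.0 ± 9.37 in 129S1/Svlmj, 74.3 ± 4.48 in C57BL/6J and 80.3 ± 5.17 in NZO/HlLtJ. The list summed to 129.5, 159.5 and 203 cpm in A/J, 155, 138 and 147 cpm in NOD/ShiLtJ and 116 to 171 cpm in pigmented libraries, so the colours overlapped. The sums of the stroma genes were highest in A/J replicate 2 (18.5 cpm) and NOD/ShiLtJ replicate 1 (17.0 cpm), the libraries with the 2 highest melanin sums. Among pigmented libraries 129S1/Svlmj replicate 2 was highest in both sums, and NZO/HlLtJ had the lowest strain mean of both. Other libraries did not match: NOD/ShiLtJ replicate 2 had 16.4 cpm of stroma RNA with a melanin sum of 25.6 cpm, and C57BL/6J exceeded 129S1/Svlmj in mean stroma RNA but not in mean melanin RNA. The part that attached pigment epithelium or stroma has in the melanin genes was not tested. In bulk tissue a larger number of cells and more RNA per cell cannot be told apart, here and for every list that follows.

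Genes of melanosome formation and transport had smaller differences, with a median of 0.07. Of 24 tested, 6 had both means above, 0 below and 0 were called, and in the single contrast 7 were higher and 0 were lower. Over all genes tested 18.6% were above by the means and 18.4% higher by the contrast. The largest member was Slc7a11, the cystine and glutamate exchanger that also sets pheomelanin levels in hair. It measured 7.50, 9.94 and 10.1 cpm in A/J and 8.49, 9.23 and 7.95 cpm in NOD/ShiLtJ, against 1.495, 7.04 and 4.23 cpm in 129S1/Svlmj, 6.47, 3.86 and 6.13 cpm in C57BL/6J and 1.52, 1.16 and 1.43 cpm in NZO/HlLtJ. Every albino library was above every pigmented library, and the difference was 1.24 ± 0.18 (SE), but the largest p of its 6 pairs did not pass (adjusted p = 1.00 in limma). Rab27a, which links melanosomes to their motor, averaged 4.58 ± 0.316 cpm in A/J, 5.00 ± 0.532 in NOD/ShiLtJ, 4.34 ± 0.294 in 129S1/Svlmj, 3.55 ± 0.244 in C57BL/6J and 3.07 ± 0.315 in NZO/HlLtJ. Mc1r, the melanocortin receptor, was counted with the synthesis genes, and its mean of 3.50 cpm in NZO/HlLtJ lay between those of the albino strains.

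**Figure D1:**
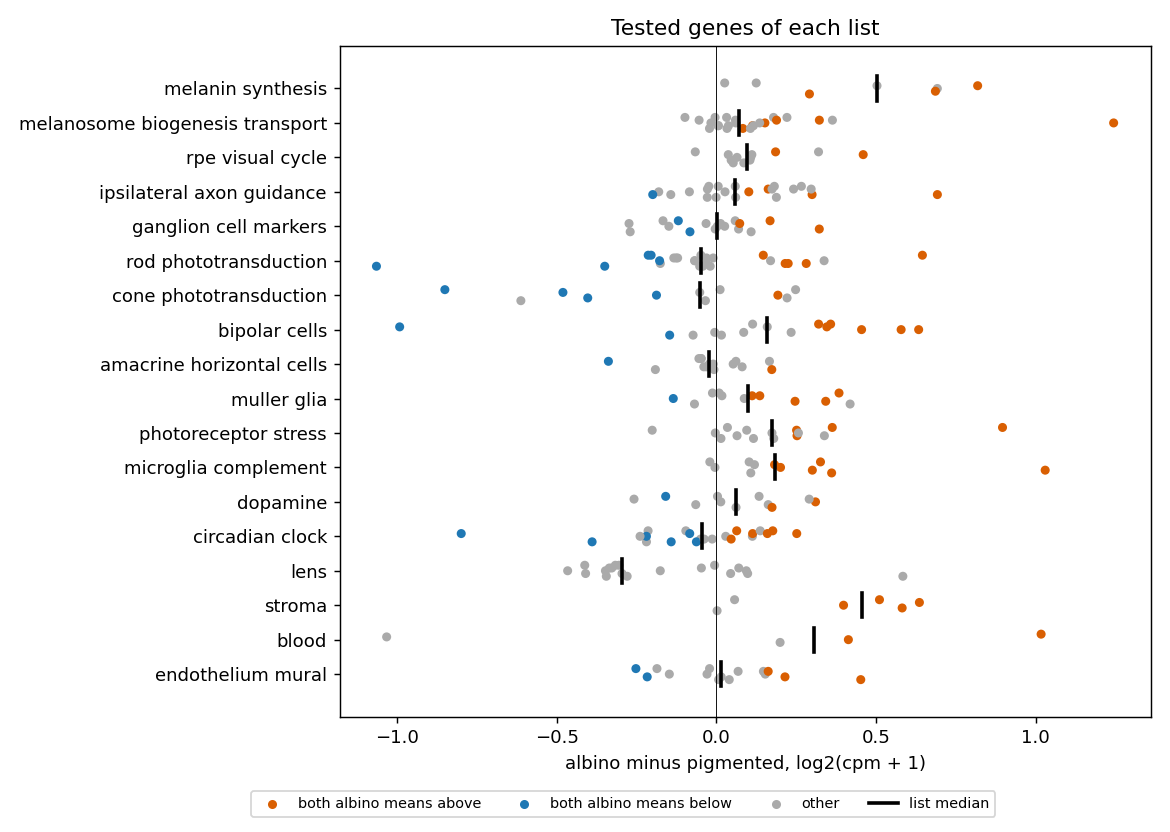
Albino minus pigmented difference in log2(cpm + 1) for each tested gene of 18 lists, with the list median as a black bar. Orange points have both albino strain means above the 3 pigmented means and blue points below them, and melanin synthesis has the highest median, 0.50.

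Among the 12504 protein-coding genes tested, 44 were called higher and 34 lower. Over all genes tested 0.354% were called higher and 0.266% lower. The 10 with the largest gap in each direction, where the gap is the distance between the nearest albino and pigmented strain means, are described here. Adjusted p-values given with a called gene are the largest of its 6 pairs, from limma with Benjamini-Hochberg adjustment, and differences are those of the single contrast with their SE on the log2(cpm + 1) scale, which understates changes of genes with low values. The gap had a median of 0.47 among called genes of either direction.

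Spata1, a gene named for its expression in spermatogenesis (chromosome 3, 146457196 to 146499753), was at 61.7, 61.7 and 61.7 cpm in A/J and 63.3, 59.2 and 57.4 cpm in NOD/ShiLtJ. The pigmented libraries were at lowest 18.9, median 20.1 and highest 24.9 cpm. The 6 albino values lay close together and far above all pigmented values, with a difference of 1.503 ± 0.04 and an adjusted p of 7.61e-10. It overlaps Ctbs on the other strand. Rdh1, a retinol dehydrogenase (chromosome 10, 127759721 to 127768297), measured 5.45, 4.31 and 4.67 cpm in A/J and 2.21, 2.14 and 2.45 cpm in NOD/ShiLtJ, against lowest 0.143, median 0.305 and highest 0.630 cpm in pigmented libraries. A/J was the higher of the albino strains, and the difference was 1.70 ± 0.05 (adjusted p = 8.47e-07). Of the 31-base words of Rdh1 transcripts, 27.9% occur in other genes. Rdh16f1 is among them and overlaps Rdh1 on the same strand, so the level of Rdh1 is uncertain. Shmt2, the mitochondrial enzyme that moves a carbon unit from serine to folate, lies 243 kb from Rdh1 (chromosome 10, 127517123 to 127522444). It was at 13.7, 12.9 and 12.2 cpm in A/J and 13.8, 12.3 and 15.1 cpm in NOD/ShiLtJ, and at lowest 5.27, median 6.85 and highest 7.64 cpm in pigmented libraries. The groups were apart by 0.92 ± 0.06 (adjusted p = 0.000234), and the gene overlaps Ndufa4l2 on the other strand.

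Hopx, a homeodomain protein that does not bind DNA itself (chromosome 5, 77086988 to 77115121), was at 12.5, 11.04 and 11.6 cpm in A/J and 8.66, 9.15 and 8.29 cpm in NOD/ShiLtJ. Pigmented values were lowest 3.15, median 3.75 and highest 5.37 cpm, and the groups did not overlap (difference 1.18 ± 0.07, adjusted p = 0.000653). Hopxos, a gene on the other strand, overlaps its exons, and 26.2% of its 31-base words occur in other genes, so its level is uncertain. Atf3, a factor induced by cell stress and by axon injury in ganglion cells (chromosome 1, 191170296 to 191218039), was at 2.44, 2.09 and 2.44 cpm in A/J and 3.53, 3.95 and 4.17 cpm in NOD/ShiLtJ. Pigmented libraries had lowest 0.618, median 0.975 and highest 1.15 cpm of Atf3, so that NOD/ShiLtJ was highest, A/J intermediate and all pigmented libraries low (difference 1.05 ± 0.05, adjusted p = 0.000230). No other gene shared its 31-base words.

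Asap3, a GTPase-activating protein for Arf (chromosome 4, 136206365 to 136245216), was at 8.66, 7.66 and 7.17 cpm in A/J and 10.9, 9.97 and 12.7 cpm in NOD/ShiLtJ, and at lowest 2.12, median 2.36 and highest 3.89 cpm in pigmented libraries (difference 1.47 ± 0.06, adjusted p = 2.08e-05). Fam171b, a membrane protein (chromosome 2, 83812636 to 83883486), was at 115, 117 and 122 cpm in A/J and 129, 125 and 122 cpm in NOD/ShiLtJ, against lowest 64.7, median 73.1 and highest 79.9 cpm (difference 0.74 ± 0.05, adjusted p = 8.02e-05). NOD/ShiLtJ exceeded A/J in Asap3, and the colours were fully apart in both genes. Tmem26 averaged 5.19 ± 0.0819 cpm in A/J, 4.22 ± 0.298 in NOD/ShiLtJ, 1.02 ± 0.0644 in 129S1/Svlmj, 2.02 ± 0.274 in C57BL/6J and 0.843 ± 0.0649 in NZO/HlLtJ (difference 1.34 ± 0.05, adjusted p = 1.16e-05). Klhl29 averaged 13.9 ± 1.28 cpm in A/J, 12.1 ± 1.62 in NOD/ShiLtJ, 7.13 ± 0.274 in 129S1/Svlmj, 7.42 ± 1.00 in C57BL/6J and 6.99 ± 0.509 in NZO/HlLtJ (difference 0.77 ± 0.06, adjusted p = 0.00217). Ctif, a factor of cap-dependent translation, averaged 28.0 ± 2.88 cpm in A/J, 24.6 ± 2.73 in NOD/ShiLtJ, 12.7 ± 1.76 in 129S1/Svlmj, 13.0 ± 1.14 in C57BL/6J and 13.7 ± 0.793 in NZO/HlLtJ (difference 0.95 ± 0.06, adjusted p = 0.000303), and Gm10532 overlaps it on the other strand, with 10.7% of its 31-base words in other genes. For each of these genes too, all albino libraries lay above all pigmented libraries.

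**Figure D2:**
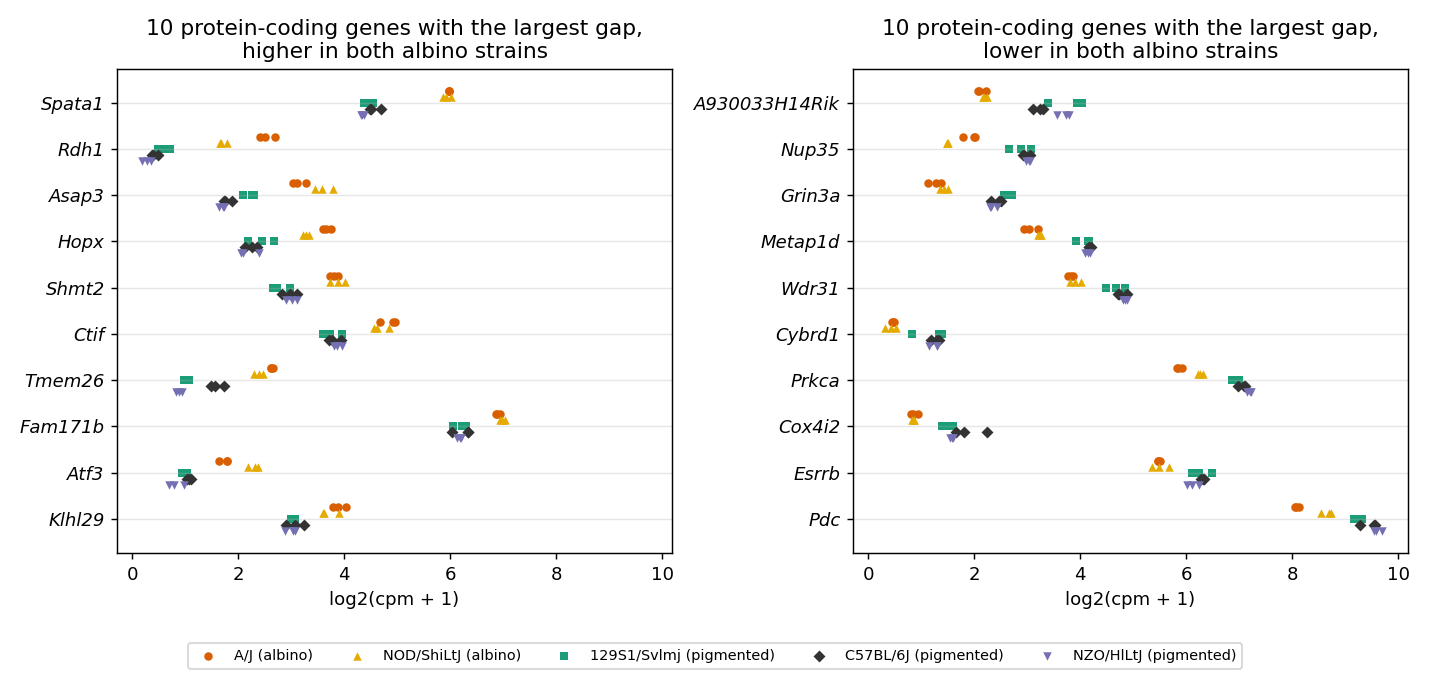
Level of the 10 protein-coding genes with the largest gap in each direction, as log2(cpm + 1) on the horizontal axis, with a point for each library and a colour and symbol for each strain. The 6 albino libraries lie on one side of the 9 pigmented libraries for each gene.

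On the lower side, A930033H14Rik (chromosome 10, 69209762 to 69213098) was at 3.68, 3.24 and 3.21 cpm in A/J and 3.54, 3.51 and 3.72 cpm in NOD/ShiLtJ, against lowest 7.60, median 10.8 and highest 15.4 cpm in pigmented libraries. Its difference was -1.40 ± 0.08 (adjusted p = 0.000243), and it overlaps Rhobtb1 on the other strand. Nup35, a protein of the nuclear pore (chromosome 2, 80617236 to 80658906), was at 2.996, 2.45 and 3.06 cpm in A/J and 1.79, 1.80 and 1.85 cpm in NOD/ShiLtJ, and at lowest 5.35, median 6.91 and highest 7.38 cpm in the pigmented strains (difference -1.24 ± 0.06, adjusted p = 2.08e-05). Dusp19 overlaps Nup35 on the same strand and 43.0% of its 31-base words occur elsewhere, so its level is uncertain. Grin3a, a subunit of NMDA-type glutamate receptors (chromosome 4, 49661611 to 49845744), was at 1.42, 1.60 and 1.19 cpm in A/J and 1.71, 1.84 and 1.58 cpm in NOD/ShiLtJ. Pigmented values of Grin3a were lowest 3.90, median 4.50 and highest 5.56 cpm, with a difference of -1.12 ± 0.05 (adjusted p = 6.30e-06) and no word shared with another gene. The albino strains overlapped each other while both lay far below the pigmented strains.

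Metap1d, a mitochondrial aminopeptidase, and Cybrd1, a ferric reductase, lie 335 kb apart on chromosome 2 and were both lower. Metap1d averaged 7.39 ± 0.812 cpm in A/J, 8.42 ± 0.238 in NOD/ShiLtJ, 15.9 ± 1.60 in 129S1/Svlmj, 17.2 ± 0.217 in C57BL/6J and 16.7 ± 0.525 in NZO/HlLtJ (difference -0.98 ± 0.05, adjusted p = 6.30e-06). Cybrd1 averaged 0.387 ± 0.0210 cpm in A/J, 0.348 ± 0.0957 in NOD/ShiLtJ, 1.31 ± 0.463 in 129S1/Svlmj, 1.42 ± 0.140 in C57BL/6J and 1.37 ± 0.131 in NZO/HlLtJ (difference -0.78 ± 0.07, adjusted p = 0.00349). Cox4i2, an isoform of a cytochrome c oxidase subunit, averaged 0.820 ± 0.0915 cpm in A/J, 0.805 ± 0.0232 in NOD/ShiLtJ, 1.84 ± 0.210 in 129S1/Svlmj, 2.81 ± 0.820 in C57BL/6J and 1.98 ± 0.0580 in NZO/HlLtJ (difference -0.81 ± 0.07, adjusted p = 0.00758). Albino and pigmented libraries did not overlap in these genes, but without the 2 libraries with high Xist, Cybrd1 and Cox4i2 were no longer called, at nearly the same differences of -0.76 and -0.82. Wdr31 averaged 13.2 ± 0.440 cpm in A/J, 14.0 ± 1.078 in NOD/ShiLtJ, 24.5 ± 3.13 in 129S1/Svlmj, 26.5 ± 1.81 in C57BL/6J and 27.8 ± 0.920 in NZO/HlLtJ (difference -0.90 ± 0.05, adjusted p = 4.49e-05), and 14.3% of its 31-base words occur in other genes.

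Pdc, Prkca and Pde6h were the genes called lower on the rod, bipolar and cone lists, 1 for each list. These lists held 25, 15 and 11 tested genes in that order, and 0.266% of all genes tested were called lower. Pdc encodes phosducin, a rod protein that binds the beta and gamma subunits of transducin (chromosome 1, 150319417 to 150333906). It measured 269, 265 and 280.5 cpm in A/J and 427, 413 and 375 cpm in NOD/ShiLtJ. Pigmented retinas had 574, 618 and 637 cpm in 129S1/Svlmj, 744, 622 and 759 cpm in C57BL/6J and 833, 766 and 743 cpm in NZO/HlLtJ. A/J was lowest, NOD/ShiLtJ next and every pigmented library higher, with a difference of -1.07 ± 0.05 (adjusted p = 0.000300). Prkca, protein kinase C alpha and a marker of rod bipolar cells (chromosome 11, 107933387 to 108343928), was at 59.7, 56.3 and 56.0 cpm in A/J and 74.2, 75.8 and 78.6 cpm in NOD/ShiLtJ. The pigmented libraries were at lowest 116, median 136 and highest 149 cpm. No pigmented library came near the albino range (difference -0.99 ± 0.03, adjusted p = 8.47e-07), and Apoh overlaps the gene on the other strand. Pde6h, the inhibitory subunit of the cone phosphodiesterase (chromosome 6, 136923832 to 136968865), was at 14.3, 13.9 and 13.7 cpm in A/J and 13.3, 12.5 and 13.0 cpm in NOD/ShiLtJ, against 16.4, 18.7 and 18.9 cpm in 129S1/Svlmj, 31.1, 35.9 and 30.8 cpm in C57BL/6J and 28.0, 25.5 and 27.0 cpm in NZO/HlLtJ. 129S1/Svlmj lay nearest to the albino strains. The difference was -0.85 ± 0.04 (adjusted p = 0.0170), and the adjusted p was 0.0812 without 129S1/Svlmj replicate 2, 0.102 without 129S1/Svlmj replicate 3, 0.0851 without A/J replicate 2 and 0.0850 without A/J replicate 3. It was not called without the 2 libraries with high Xist either, although its difference stayed at -0.85. Arhgdib overlaps it on the other strand.

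Esrrb and Rorb, which encode nuclear receptors, were also lower. Esrrb, an orphan receptor expressed in rods (chromosome 12, 86361117 to 86521628), was at 44.3, 43.3 and 43.1 cpm in A/J and 44.2, 40.1 and 50.3 cpm in NOD/ShiLtJ, and at lowest 63.7, median 75.1 and highest 89.3 cpm in pigmented libraries (difference -0.74 ± 0.06, adjusted p = 0.00153). Rorb, which directs photoreceptor development and belongs to the clock list (chromosome 19, 18930605 to 19111196), was at 103, 102 and 90.5 cpm in A/J and 88.1, 97.3 and 96.7 cpm in NOD/ShiLtJ. Its pigmented values were lowest 133, median 171 and highest 208 cpm, with NZO/HlLtJ nearest to the albino strains (difference -0.80 ± 0.05, adjusted p = 0.00824). That call was lost without A/J replicate 3 (adjusted p = 0.0605) and without NZO/HlLtJ replicate 2 (0.0540). Of the genes picked after their values were seen, Hk2, the hexokinase of photoreceptor glycolysis, averaged 47.6 ± 4.14 cpm in A/J, 70.3 ± 5.83 in NOD/ShiLtJ, 103 ± 7.45 in 129S1/Svlmj, 119.5 ± 5.12 in C57BL/6J and 122 ± 7.49 in NZO/HlLtJ (difference -0.97 ± 0.05, adjusted p = 0.000653). Stx3, the syntaxin of ribbon synapses, averaged 169 ± 5.43 cpm in A/J, 169 ± 6.77 in NOD/ShiLtJ, 248 ± 2.31 in 129S1/Svlmj, 258 ± 2.25 in C57BL/6J and 279.9 ± 12.3 in NZO/HlLtJ (difference -0.63 ± 0.03, adjusted p = 1.54e-06). Rbpj, the DNA-binding partner of Notch, averaged 11.1 ± 0.0845 cpm in A/J, 11.4 ± 0.894 in NOD/ShiLtJ, 16.4 ± 0.866 in 129S1/Svlmj, 16.8 ± 1.05 in C57BL/6J and 17.4 ± 0.845 in NZO/HlLtJ (difference -0.55 ± 0.04, adjusted p = 0.000360). Of its 31-base words 11.8% recur in other genes, pseudogenes of Rbpj included. In each of these genes the albino libraries lay below all pigmented libraries.

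**Figure D3:**
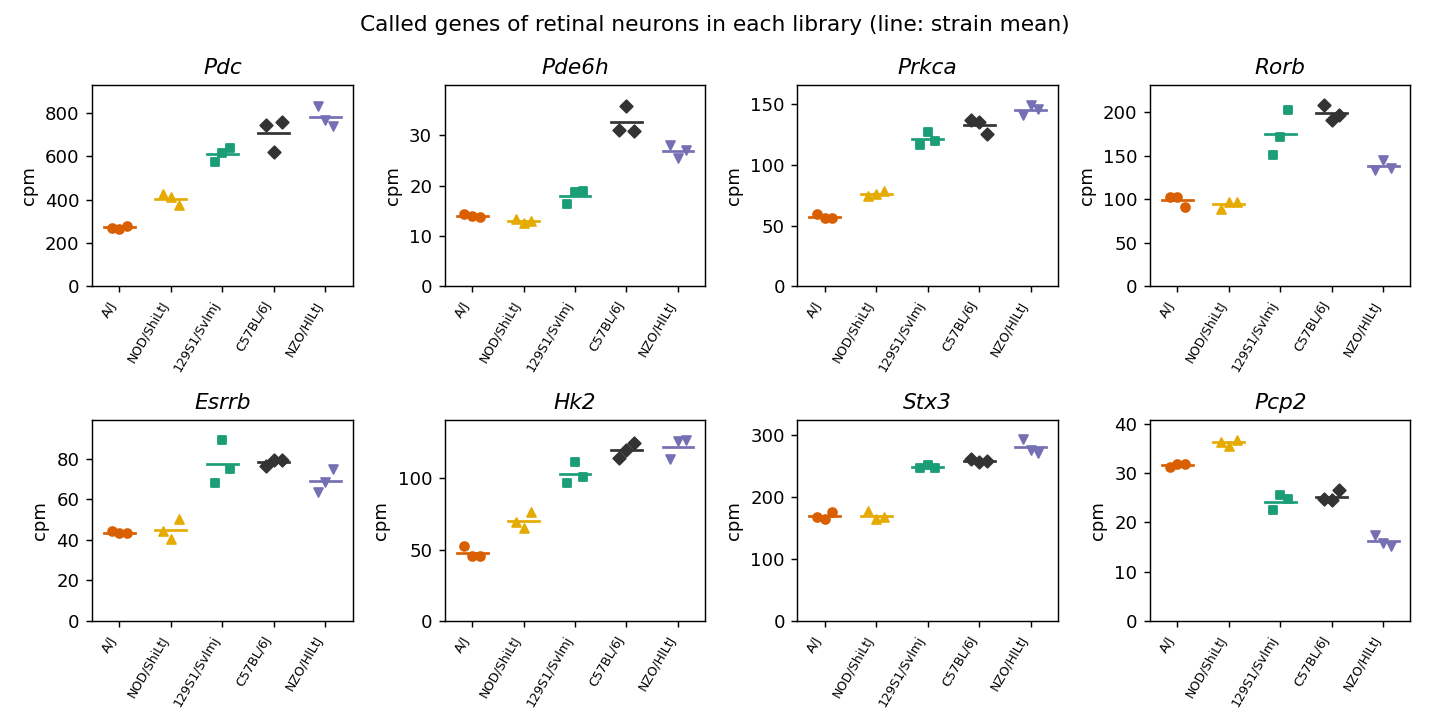
Level in cpm of 8 called genes of retinal neurons in each library, on axes that start at 0, with the strain mean as a line. Pcp2 is higher and the other genes are lower in the libraries of A/J and NOD/ShiLtJ than in all pigmented libraries.

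Of 25 tested rod phototransduction genes, 5 had both albino means above and 5 below, with a median of -0.05, and Pdc was the only one called. Over all genes tested 18.6% were above and 10.7% below. In the single contrast 7 rod genes were higher and 9 lower, against 18.4% and 13.0% of all genes. Sag, rod arrestin, went the other way from Pdc, at 1937, 1916 and 1983 cpm in A/J and 2203, 2142 and 2285 cpm in NOD/ShiLtJ against lowest 862, median 1490 and highest 1753 cpm. Its libraries did not overlap (difference 0.65 ± 0.04), but the largest p of its pairs did not pass (adjusted p = 0.622). Of 11 tested cone genes, 1 had both means above and 4 below, where 10.7% of all genes tested were below, and the median was -0.05. In the single contrast 3 cone genes were higher and 5 lower, against 18.4% and 13.0% of all genes. The sums of the list overlapped, at 371 to 418 cpm in albino and 355 to 497 cpm in pigmented libraries. NZO/HlLtJ had the lowest strain mean of these sums, 365 cpm, against 411 cpm in A/J. The 4 with both means below were Pde6h, Gngt2, Cnga3 and Cngb3, the last 3 subunits of the cone transducin and of the cone channel. For all 4 the albino libraries lay below every pigmented library. Over all genes tested that held for 228 (1.44%), out of 1686 with both means below. Cnga3 averaged 3.28 ± 0.526 cpm in A/J, 2.52 ± 0.307 in NOD/ShiLtJ, 4.02 ± 0.354 in 129S1/Svlmj, 5.40 ± 0.263 in C57BL/6J and 3.89 ± 0.197 in NZO/HlLtJ.

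Of 15 tested bipolar cell genes, 6 had both albino means above and 2 below, where 18.6% and 10.7% of all genes tested did. In the single contrast 9 were higher and 2 lower, against 18.4% and 13.0% of all, and the median was 0.16. The sums of the list overlapped, at 716 to 803 cpm in albino and 659 to 778 cpm in pigmented libraries. Over all genes tested 0.354% were called higher and 0.266% lower. Pcp2, a modulator of the G protein of ON bipolar cells (chromosome 8, 3623371 to 3625545), was the only other called gene of the list. It measured 31.3, 31.8 and 31.9 cpm in A/J and 36.4, 35.6 and 36.8 cpm in NOD/ShiLtJ, and lowest 15.3, median 24.5 and highest 26.5 cpm in pigmented libraries (difference 0.63 ± 0.04, adjusted p = 0.00876). Pet100 overlaps it on the other strand, and 47.2% of its 31-base words occur in other genes, so its level is uncertain. In the fit over all 24 libraries Pcp2 was not called. Gpr179, of the same synaptic complex, averaged 88.0 ± 9.05 cpm in A/J, 86.6 ± 12.5 in NOD/ShiLtJ, 59.1 ± 3.94 in 129S1/Svlmj, 63.3 ± 7.90 in C57BL/6J and 67.8 ± 8.54 in NZO/HlLtJ (adjusted p = 0.442). Cabp5 averaged 44.8 ± 4.00 cpm in A/J, 45.5 ± 1.72 in NOD/ShiLtJ, 39.7 ± 0.732 in 129S1/Svlmj, 24.5 ± 1.54 in C57BL/6J and 27.3 ± 1.19 in NZO/HlLtJ (adjusted p = 0.767). Both had albino libraries fully above the pigmented libraries without passing in all 6 pairs. Of 15 tested amacrine and horizontal cell genes, 1 had both means above and 1 below, with a median of -0.02.

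Ganglion cell markers, of interest because the routing of ganglion cell axons differs in albino animals, had differences that centred on 0. The albino strains did not agree in the sums of these markers, which averaged 322 cpm in A/J and 381 cpm in NOD/ShiLtJ. Pigmented means of the sums were 380 cpm in 129S1/Svlmj, 403 cpm in C57BL/6J and 322 cpm in NZO/HlLtJ. Of 17 tested, 3 had both means above and 2 below, 2 were higher and 5 lower in the single contrast, and 0 were called. The shares over all genes tested were 18.6% and 10.7% by the means and 18.4% and 13.0% by the contrast. The median was 0.003 as deposited, -0.01 with median ratios and -0.02 with quantile-normalized values. The signs of all other list medians were the same under the 3 scalings. Pou4f1, a transcription factor of ganglion cells, averaged 3.27 ± 0.307 cpm in A/J, 3.40 ± 0.187 in NOD/ShiLtJ, 3.21 ± 0.203 in 129S1/Svlmj, 3.60 ± 0.700 in C57BL/6J and 3.16 ± 0.786 in NZO/HlLtJ, and the strains overlapped. Of 22 tested genes of uncrossed or crossed axon guidance, 4 had both means above and 1 below, with a median of 0.06. Zic2, which specifies uncrossed ganglion cells, averaged 1.11 ± 0.297 cpm in A/J, 0.771 ± 0.188 in NOD/ShiLtJ, 0.706 ± 0.392 in 129S1/Svlmj, 0.869 ± 0.10 in C57BL/6J and 0.378 ± 0.0556 in NZO/HlLtJ. Ephb1, the receptor that turns their axons back at the midline, averaged 4.91 ± 0.339 cpm in A/J, 4.55 ± 0.737 in NOD/ShiLtJ, 4.27 ± 0.160 in 129S1/Svlmj, 4.50 ± 0.412 in C57BL/6J and 4.21 ± 0.219 in NZO/HlLtJ. The difference was 0.24 ± 0.09 for Zic2 (adjusted p = 0.0540 in limma's single contrast) and 0.10 ± 0.06 for Ephb1 (adjusted p = 0.188). At this age the axons have long reached their targets, and the part of age in these values was not tested.

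Igfbp5, a secreted protein that binds insulin-like growth factors, was the only called gene of the axon guidance list (chromosome 1, 72857932 to 72874884). It was at 18.6, 18.0 and 14.2 cpm in A/J and 13.2, 15.3 and 13.8 cpm in NOD/ShiLtJ, against lowest 8.18, median 9.09 and highest 10.5 cpm in pigmented libraries. The groups did not overlap (difference 0.69 ± 0.06, adjusted p = 0.0255). Over all genes tested 0.354% were called higher. The call was lost in 5 of the 15 fits that left out a library each, at adjusted p-values of 0.0535 without 129S1/Svlmj replicate 3, 0.141 without NOD/ShiLtJ replicate 2, 0.0776 without NOD/ShiLtJ replicate 3, 0.115 without NZO/HlLtJ replicate 1 and 0.136 without NZO/HlLtJ replicate 2. It was also lost with no filter on low values, without the 2 libraries with high Xist, at a difference of 0.66, and without the 3 libraries with high Cryaa, at 0.71.

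Glial, immune and stress genes had positive medians. None of their tested genes was called, where 0.620% of all genes tested were. Both albino means were above for 18.6% of all genes and below for 10.7%. Of 12 tested Müller glia genes, 5 had both albino means above and 1 below, with a median of 0.10. Of 15 tested genes of photoreceptor stress, 4 had both means above and 0 below, with a median of 0.17. Gfap, the filament protein of reactive Müller glia and astrocytes, was at 14.98, 10.9 and 10.9 cpm in A/J and 4.21, 4.69 and 12.4 cpm in NOD/ShiLtJ. Pigmented libraries had lowest 1.81, median 4.70 and highest 6.68 cpm, so the groups overlapped, and the difference of 0.90 ± 0.22 had an adjusted p of 0.00532 in limma's single contrast. Fgf2, a survival factor for photoreceptors, averaged 4.54 ± 0.177 cpm in A/J, 5.00 ± 0.173 in NOD/ShiLtJ, 4.47 ± 0.481 in 129S1/Svlmj, 9.33 ± 1.72 in C57BL/6J and 4.21 ± 0.0723 in NZO/HlLtJ, so that C57BL/6J alone stood apart. Edn2, another gene of that list, did not pass the limit on the mean.

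Of 11 tested genes of microglia and complement, 6 had both means above and 0 below, where 18.6% and 10.7% of all genes did. The median was 0.18. C4b, a complement protein, was at 5.95, 6.25 and 6.62 cpm in A/J and 3.12, 2.58 and 4.47 cpm in NOD/ShiLtJ, against lowest 0.791, median 1.75 and highest 2.76 cpm in pigmented libraries. A/J was the higher of the albino strains and its lowest library lay above all pigmented libraries (difference 1.03 ± 0.12, adjusted p over the 6 pairs 0.975). Csf1r, the receptor that maintains microglia, averaged 3.52 ± 0.308 cpm in A/J, 3.03 ± 0.258 in NOD/ShiLtJ, 2.47 ± 0.356 in 129S1/Svlmj, 2.69 ± 0.306 in C57BL/6J and 2.09 ± 0.0950 in NZO/HlLtJ. P2ry12, a microglial purine receptor, averaged 2.06 ± 0.0985 cpm in A/J, 1.80 ± 0.212 in NOD/ShiLtJ, 1.16 ± 0.223 in 129S1/Svlmj, 1.13 ± 0.162 in C57BL/6J and 1.58 ± 0.234 in NZO/HlLtJ. Summed over the list, A/J libraries were at 28.6, 30.7 and 30.7 cpm and NOD/ShiLtJ libraries at 23.1, 22.5 and 24.2 cpm, against 15.4 to 23.4 cpm in pigmented libraries.

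The summed level of the 23 clock genes, Rorb included, was 838, 831 and 817 cpm in A/J and 840.2, 831 and 856 cpm in NOD/ShiLtJ, against lowest 897.6, median 937 and highest 972 cpm in pigmented libraries, with no overlap. Without Rorb the sums overlapped, at 727 to 759 cpm in albino and 732 to 779 cpm in pigmented libraries. Of 22 tested clock genes, 6 had both means above and 6 below, where 18.6% and 10.7% of all genes did, and the median was -0.04. In the single contrast 2 were higher and 8 lower, against 18.4% and 13.0% of all. Rorb alone was called, where 0.266% of all genes tested were called lower. Bhlhe41, a repressor of the clock, averaged 22.1 ± 0.457 cpm in A/J, 22.03 ± 0.562 in NOD/ShiLtJ, 25.6 ± 1.46 in 129S1/Svlmj, 25.2 ± 1.23 in C57BL/6J and 38.7 ± 0.961 in NZO/HlLtJ, with no overlap between the colours. Arntl, an activator of the clock, averaged 38.6 ± 1.02 cpm in A/J, 39.4 ± 2.12 in NOD/ShiLtJ, 29.0 ± 1.17 in 129S1/Svlmj, 35.7 ± 1.83 in C57BL/6J and 33.4 ± 1.30 in NZO/HlLtJ, and lay on the opposite side. The hour at which retinas were taken is not in the labels, and its part in these values was not tested. Of 11 tested dopamine genes, 2 had both means above and 1 below, with a median of 0.06. Th, the rate-limiting enzyme of dopamine synthesis, which like tyrosinase acts on tyrosine, averaged 0.683 ± 0.0367 cpm in A/J, 1.04 ± 0.0287 in NOD/ShiLtJ, 0.774 ± 0.135 in 129S1/Svlmj, 0.659 ± 0.126 in C57BL/6J and 0.651 ± 0.121 in NZO/HlLtJ, and NOD/ShiLtJ lay above the other strains.

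Genes of tissues that a dissected retina can carry along were counted in the same way, and no gene of these lists was at 0 in all 15 libraries. Of 6 tested stroma genes, 4 had both albino means above and 0 below, with a median of 0.45. Over all genes tested 18.6% were above and 10.7% below. Col1a2, a fibrillar collagen and the most abundant of them, averaged 4.31 ± 1.23 cpm in A/J, 4.38 ± 0.364 in NOD/ShiLtJ, 2.65 ± 1.04 in 129S1/Svlmj, 2.73 ± 0.223 in C57BL/6J and 2.04 ± 0.600 in NZO/HlLtJ. Summed stroma RNA was 11.5, 18.5 and 10.8 cpm in A/J, 17.0, 16.4 and 10.3 cpm in NOD/ShiLtJ and 5.46 to 14.97 cpm in pigmented libraries. Of 4 tested blood genes, 2 had both means above, where 18.6% of all genes tested did. Their median was 0.31, and Hbb-bs was the most abundant at a mean of 11.4 cpm. Of 15 tested genes of vessels, 3 had both means above and 2 below, where 18.6% and 10.7% of all genes tested did. Their median was 0.01, and Kdr was the most abundant at 69.1 cpm. The 19 lens genes had a median of -0.30, with wide spread between libraries. Whether tissue outside the neural retina has a part in the called genes was not tested.

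The widest gaps of all belonged to genes that are not protein-coding. BC023719, a long non-coding RNA of the histocompatibility region (chromosome 17, 36111426 to 36117121), was at 9.42, 10.1 and 11.4 cpm in A/J and 10.8, 9.98 and 9.98 cpm in NOD/ShiLtJ. No pigmented library exceeded 0.0162 cpm, which is below the floor of 3 reads. The difference was 3.49 ± 0.04 (adjusted p = 7.38e-15). Of its 31-base words 96.8% occur in other genes, chiefly H2-T10 and H2-T22, so its level is uncertain. Gm36684 was at 4.29, 4.78 and 4.71 cpm in A/J and 3.59, 3.89 and 4.02 cpm in NOD/ShiLtJ, and at most 0.0391 cpm in pigmented libraries (difference 2.35 ± 0.04, adjusted p = 3.26e-13).

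Gm22513, annotated as a small nuclear RNA (chromosome 12, 54696782 to 54696945), showed the reverse. It was at 0.210, 0.211 and 0.158 cpm in A/J and 0.801, 0.430 and 0.167 cpm in NOD/ShiLtJ. Pigmented libraries had lowest 297, median 363 and highest 478 cpm. The difference was -8.16 ± 0.11 (adjusted p = 3.23e-14), and 82.8% of its 31-base words occur in other genes, so its level is uncertain too. In the wild-derived pigmented strains its means were 0.194 cpm in CAST/EiJ, 0.176 cpm in PWK/PhJ and 0.191 cpm in WSB/EiJ, as low as in the albino strains. Gm12411, a pseudogene whose 31-base words all occur elsewhere, was at lowest 0.608, median 1.77 and highest 2.54 cpm in pigmented libraries and at most 0.122 cpm in albino libraries (difference -1.28 ± 0.06, adjusted p = 0.000243).

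The albino allele lies in Tyr, so the surrounding segment of chromosome 7 is the region that albino strains have in common by definition. Within 10 Mb of Tyr, 1 of 155 tested genes was called (0.645%, 95% interval 0.0163% to 3.54%), against 92 of 14590 on other chromosomes (0.631%) and 5 of 1066 on the rest of chromosome 7 (0.469%). Within 5 Mb 0 of 70 were called (0%, interval up to 5.13%), and within 20 Mb 2 of 288 (0.694%). With so few genes, a share several times that of other chromosomes is not excluded. Genes with both albino means on 1 side made up 25.2% of those within 10 Mb and 29.3% of those on other chromosomes. Within 5 Mb, 4 of 70 genes had both means above and 13 below, against 18.6% and 10.7% of all genes tested. The called gene within 10 Mb was Ntrk3, the receptor of neurotrophin-3 (chromosome 7, 78175959 to 78738012). It measured 37.7, 37.7 and 37.2 cpm in A/J and 37.7, 38.7 and 38.4 cpm in NOD/ShiLtJ, and lowest 26.2, median 28.2 and highest 29.2 cpm in pigmented libraries. Both albino strains lay in a narrow band above all pigmented libraries (difference 0.42 ± 0.03, adjusted p = 5.31e-05).

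**Figure D4:**
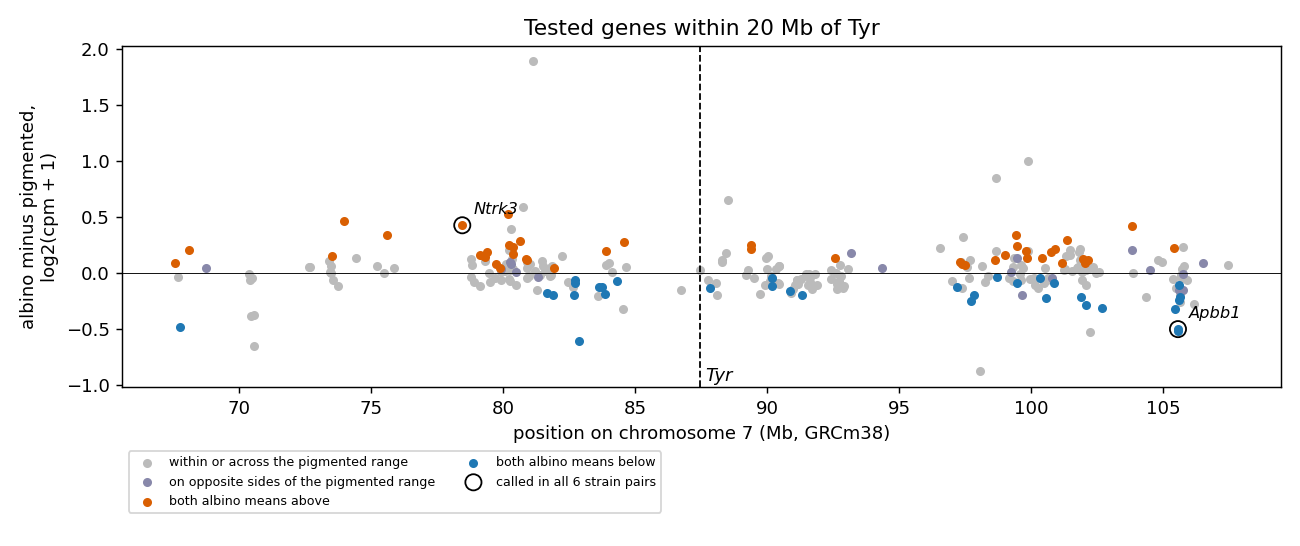
Albino minus pigmented difference in log2(cpm + 1) of tested genes within 20 Mb of Tyr, against position on chromosome 7 in Mb of GRCm38. Circled genes were called in all 6 strain pairs, and the dashed line marks Tyr, around which no gene within 5 Mb was called.

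Elsewhere called genes tended to have called neighbours. Of the 98, 28 (28.6%) had another called gene within 1 Mb, against 1595 of 15713 tested genes that were not called (10.2%). They formed 18 pairs, of which 7 moved in the same direction and 11 in opposite directions. These include BC023719, called higher, and H2-T22, called lower, at 74.3 kb. Of the 31-base words of BC023719 96.8% occur in other genes, H2-T22 among them, so that pair may not hold separate calls. Rdh1 and Shmt2 were both higher. On chromosome 2, Cybrd1 and Metap1d were both lower, with a gene called higher between them. A930033H14Rik was lower and Tmem26, 486 kb away, was higher. By chromosome the share of called genes ran from 0% of the 15 genes of the mitochondrial genome to 1.22% on chromosome 17, where 9 of 736 were called. In the mitochondrial genome 7 of 15 genes had both albino means below the pigmented means and 0 above, where 10.7% and 18.6% of all genes did. None of the 15 passed in all 6 pairs (largest adjusted p of 1.00 in limma for each). Differences of those below ran from -0.45 for mt-Nd3 to -0.12 for mt-Rnr1, and the others reached up to 0.12, for mt-Nd2.

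The wild-derived strains are pigmented as well and gave a further description, with the same albino libraries. For 57 of the 98 called genes (58.2%) both albino means also lay outside the range of CAST/EiJ, PWK/PhJ and WSB/EiJ, 32 of those higher and 25 of those lower. Over all genes with both means on 1 side, this held for 34.03% of those above and 24.1% of those below. Prkca was at 144, 173 and 189 cpm in these strains in that order, and Pdc at 676, 599 and 536 cpm, all above the albino strains. Wdr31 was likewise at 24.9, 25.0 and 24.8 cpm. Hopx did not follow colour there, at 9.15, 10.8 and 13.6 cpm, within or above the albino level. Spata1 was at 1.13, 23.0 and 56.1 cpm, with WSB/EiJ close to the albino strains. Pde6h in WSB/EiJ, at 9.95 cpm, was below both albino strains.

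The stretches before the RefSeq start of Pdc, Pde6h, Prkca and Pcp2 are shown, which are the called genes of the rod, cone and bipolar cell lists. The stretch of Prkca reaches partly into the interval given above for that gene. For Pde6h the RefSeq start lies inside the interval given above for the counted gene (136923832 to 136968865). Its stretch is therefore not upstream of the counted gene, and the annotations differ there. They are the 250 bases upstream of the first start site listed by RefSeq on GRCm38.p6, 5′ to 3′ on the strand of the gene, at chr1:150319167-150319416 on the plus strand for Pdc, chr6:136954273-136954522 on the plus strand for Pde6h, chr11:108343889-108344138 on the minus strand for Prkca and chr8:3625548-3625797 on the minus strand for Pcp2. Capitals mark matches to TAATCC, the core bound by the photoreceptor factor CRX, to AGGTCA, the site of nuclear receptors such as ESRRB and RORB, or to CACGTG, the E-box of clock factors and MITF, each searched on both strands. Over 25748 such stretches, 1 for each gene off the sex chromosomes, TAATCC was in 6.38%, AGGTCA in 13.9% and CACGTG in 6.04%. Among the 10297 of them that belong to tested genes the shares were 5.32%, 10.2% and 8.25% in the same order. RefSeq stretches matched 32 genes called higher and 29 called lower. TAATCC was in 4 and 1 of them in that order, AGGTCA in 3 and 1, and CACGTG in 0 and 3. A match describes letters and says nothing of binding.
Pdc: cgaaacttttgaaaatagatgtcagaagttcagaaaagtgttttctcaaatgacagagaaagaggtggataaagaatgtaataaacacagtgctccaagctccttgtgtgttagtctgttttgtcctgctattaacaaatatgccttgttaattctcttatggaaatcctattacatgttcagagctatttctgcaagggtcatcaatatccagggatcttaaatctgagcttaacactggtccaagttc
Pde6h: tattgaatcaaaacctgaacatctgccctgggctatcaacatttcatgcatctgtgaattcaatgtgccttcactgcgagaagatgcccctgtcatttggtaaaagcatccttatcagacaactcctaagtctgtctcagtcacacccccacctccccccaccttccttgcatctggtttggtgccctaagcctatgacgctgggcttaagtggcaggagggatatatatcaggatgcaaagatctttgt
Prkca: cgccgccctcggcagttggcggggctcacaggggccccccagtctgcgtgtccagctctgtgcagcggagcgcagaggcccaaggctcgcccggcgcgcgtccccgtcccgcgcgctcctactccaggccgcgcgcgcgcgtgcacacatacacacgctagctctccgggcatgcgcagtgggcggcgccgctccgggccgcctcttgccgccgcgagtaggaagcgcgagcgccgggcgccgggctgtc
Pcp2: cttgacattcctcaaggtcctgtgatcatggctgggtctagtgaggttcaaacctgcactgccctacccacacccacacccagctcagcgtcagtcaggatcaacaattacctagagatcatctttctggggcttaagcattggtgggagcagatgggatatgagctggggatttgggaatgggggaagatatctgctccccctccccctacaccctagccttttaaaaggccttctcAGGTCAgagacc

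When the strain mean was taken as the unit, with 5 values a gene, limma called 3 genes higher and 1 lower at an adjusted p under 0.05: BC023719 (adjusted p = 0.000153), Gm36684 (0.00441), Spata1 (0.0177) and, lower, Gm22513 (7.60e-05). Before adjustment 1093 genes (6.91%) were higher and 480 (3.04%) lower at a p under 0.05 by limma. Of these called genes Spata1 is the only one that codes for a protein.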

How the data were processed

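Retinal RNA libraries of 5 strains, 3 a strain, were compared, with groups from the strain labels. Per the methods and labels, the authors aligned reads with STAR to GRCm38/mm10 and assigned them to genes with the Partek E/M model, and the deposited values are cpm of each library's total reads with 0.0001 added. Because 87.9% to 89.7% of low values were whole reads (within 0.02), count tests were not used. The methods name RefSeq for the gene models, but the table carries biotypes of the Ensembl kind, so the models counted are uncertain. Whether strand was used in counting is not given in the sources used here.

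The members and lists were chosen with earlier results of these data known. Strain means of log2(cpm + 1) were fitted with limma 3.58.1 (lmFit, eBayes with trend) in R 4.3.3, and figures drawn with matplotlib 3.10.9. Named genes were the 10 protein-coding and 2 other called genes with the largest gap in each direction, called list genes, Tyr, called genes within 10 Mb of Tyr, genes at the threshold, the most abundant gene of each other tissue and label checks. List genes that were not called, Nnt, Hk2, Stx3, Rbpj and the mitochondrial genes were named after their values were seen. Exon overlaps and shared 31-base words came from GENCODE. The test was tried on simulated data. Alternatives were another pseudocount, filter, scaling, threshold, unit or contrast, all 24 libraries, and leaving out libraries or strains.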

Additional observations from a re-analysis of the deposited data

Results flagged for a closer look

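Xist, on a chromosome left out of the comparison, stood at 3.12 cpm in NOD/ShiLtJ replicate 1, above the floor of 3 reads. The other 12 libraries with Y-linked RNA had 0.146 to 0.499 cpm. Y-linked genes in that library were at the level of its strain, and the source of the Xist reads was not tested.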

How the results depend on the processing

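The single-contrast differences of the called genes described above kept their sign and their side of the threshold with another pseudocount or scaling and with each library, set of libraries or pigmented strain left out. With the strain mean as the unit, only Spata1, BC023719, Gm36684 and Gm22513 passed. Their size depended on the pseudocount for low genes: at 0.1 it was over 1.5 times as large for Rdh1 (2.99), Atf3 (1.58), BC023719 (6.65), Gm36684 (5.21), Gm12411 (-3.54), Cybrd1 (-1.64) and Cox4i2 (-1.31). Tyr passed the threshold under none, at -0.13 to 0.18. The counts of called genes moved more. Against 56 higher and 42 lower, a mean of at least 5 cpm gave 32 and 27, and an adjusted p under 0.01 gave 32 and 23. Without 129S1/Svlmj 157 and 136 were called, without C57BL/6J 193 and 107, and without NZO/HlLtJ 112 and 118, where only 4 pairs must differ. The single contrast with both means outside the range gave 1836 and 1025, and the strain mean as the unit 3 and 1. Without the 2 libraries with high Xist, an alternative chosen after seeing the data, 24 were lower, and the cause was not tested. Leaving out each library in turn gave 40 to 65 higher and 28 to 48 lower, and 53 of the 98 were called in all 15 such fits. The rule was met by 9366 genes without a filter, 3602 at 5 cpm and 5319 to 6177 with a library left out. The share called near Tyr was 0% within 5 Mb, where 70 genes were tested. Other alternatives kept the counts within 1.5 times.

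No paired analysis was possible because the labels give no replicate numbers shared between strains. The paper describes a randomized complete block design for pooling the libraries, but the labels name no block. Replicate numbers used here follow the order of the libraries within a strain. With 3 mice a strain and fewer than 40 reads at 0.5 cpm, small differences of low genes were not detectable. All strains were aligned to the same reference genome, and the part of sequence differences between strains in the values was not tested.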
